A study of Mus musculus with 12 samples.

Results

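The genotype by MPP+ interaction was measured in mouse primary astrocytes: it asks, gene by gene, whether the change caused by MPP+ in Arrb2 knockout (KO) cells differs from the change in wild-type (WT) cells. All 12 RNA samples of the series entered this contrast, 3 in each of 4 groups, and 21129 of the 32742 genes in the table passed the filter on low counts and were tested; the other 11613 were not. The groups were KO given MPP+ at 500 µM for 24 h, KO given phosphate-buffered saline (PBS), WT given MPP+ at 500 µM for 24 h, and WT given PBS, all labelled Day 14. The cells came from the midbrain of newborn mice, were grown as mixed glia in serum and shaken to remove fibroblasts, neurons, microglia and oligodendrocytes. The labels do not give the deleted part of Arrb2 or the strain, and do not say whether the samples of a group are separate cultures, so that p-values measure only the spread between these samples.

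Beta-arrestin 2, the product of Arrb2, binds activated G protein-coupled receptors, ends their coupling to G proteins, carries them into the cell and serves as a scaffold for kinases and for the ubiquitin ligase Mdm2. MPP+ is the active metabolite of the neurotoxin MPTP and blocks complex I of the mitochondrial respiratory chain. Astrocytes turn MPTP into MPP+ in the brain and survive a block of complex I better than dopaminergic neurons do.

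The interaction is given here as the KO effect minus the WT effect, where each effect is the log2 fold change of MPP+ over PBS. A positive value means that a gene rose more, or fell less, in KO than in WT. Values after ± are standard errors of log2 values from 3 samples a group unless SD is named. A gene was called when its Benjamini-Hochberg adjusted p in edgeR's quasi-likelihood test was under 0.05 over all 21129 genes. Called higher means a called positive interaction and called lower a called negative one, whatever the levels of the groups. Levels are CPM, the counts scaled to a common library size.

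Total counts were between 64249029 and 69865569 per sample, and 1 library lay far from its own group: WT MPP+ replicate 1 scored 34.4 on the third principal component (5.28% of the variance), while replicates 2 and 3 scored -51.9 and -27.0. The summed level of 12 astrocyte markers was 1870 to 2180 CPM in KO MPP+, 4880 to 6100 CPM in KO PBS, 2060 to 2640 CPM in WT MPP+ and 6410 to 7270 CPM in WT PBS samples. The summed level of 14 fibroblast and meningeal markers was 1330 to 1920 CPM in KO MPP+, 1550 to 1920 CPM in KO PBS, 267 to 703 CPM in WT MPP+ and 460 to 1420 CPM in WT PBS samples. Within WT MPP+, replicate 1 had 703 CPM and the other replicates 267 and 327 CPM. For 12 endothelial markers, of which 9 were tested, it was 85.6 to 116 CPM in KO MPP+, 109 to 118 CPM in KO PBS, 44.9 to 59 CPM in WT MPP+ and 99.8 to 104 CPM in WT PBS samples. Every marker of these 3 lists had counts in some sample. Pericyte and smooth muscle markers summed to 819 to 927 CPM in KO MPP+ and 3800 to 5500 CPM in KO PBS samples. In WT they summed to 676 to 883 CPM in MPP+ and 3880 to 4260 CPM in PBS. Microglia and macrophage markers summed to 469 to 693 CPM in KO MPP+ and 893 to 1240 CPM in KO PBS samples. In WT these summed to 749 to 969 CPM in MPP+ and 1300 to 1960 CPM in PBS. Oligodendrocyte lineage markers summed to 184 to 213 CPM in KO MPP+ and 551 to 598 CPM in KO PBS samples. In WT the sums were 144 to 162 CPM in MPP+ and 519 to 537 CPM in PBS. Neuron markers summed to 279 to 308 CPM in KO MPP+ and 530 to 635 CPM in KO PBS samples. In WT they were at 232 to 257 CPM in MPP+ and 474 to 587 CPM in PBS. The median interaction was 0.31 for the oligodendrocyte lineage and 0.28 for neurons, with none called. The part of other cell types in the interaction was not tested. In bulk RNA, fewer cells of a type and less RNA per cell cannot be told apart. The Y-linked genes summed to 43.1 CPM in KO MPP+ replicate 1 and 39.4 CPM in KO PBS replicate 1, to 127 to 131 CPM in the other KO samples, and to 0 to 0.23 CPM in WT samples. Sex and genotype therefore cannot be told apart, and the KO samples numbered 1 share a lower Y-linked level in both treatments.

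Arrb2 itself was lower in KO samples and still present. It had 15.1, 12.6 and 12.1 CPM in KO MPP+ and 14.4, 16.1 and 13.8 CPM in KO PBS samples, against 24.2, 17.2 and 17.5 CPM in WT MPP+ and 31, 26.4 and 21.7 CPM in WT PBS samples. No KO sample reached the level of any WT sample. The difference KO minus WT was -0.57 ± 0.163 in MPP+ (adjusted p = 0.0363) and -0.83 ± 0.163 in PBS (adjusted p = 0.0084). Its interaction was 0.27 ± 0.23 with an adjusted p of 0.602. Arrb1, the gene of the other beta-arrestin, had 37.6, 6.21 and 18.5 CPM in KO MPP+ and 13.2, 13.4 and 14.4 CPM in KO PBS samples. It had 31.3, 23.9 and 14.1 CPM in WT MPP+ and 55.2, 58.9 and 51.6 CPM in WT PBS samples. The KO MPP+ samples spanned a wider range than the KO PBS and WT MPP+ samples together, the WT PBS samples were above all others, and the interaction of 1.86 ± 0.671 was not called (adjusted p = 0.182). It was 1.11 without KO MPP+ replicate 1 and 2.29, then called, without KO MPP+ replicate 2 (adjusted p = 0.0439).

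A called interaction was found for 285 genes, 1.35% of those tested. The MPP+ effect was more positive in KO for 127 of them (0.601% of tested genes) and more negative in KO for 158 (0.748%); upper-quartile scaling turned this balance, to 140 and 124. Under an unadjusted p of 0.05 there were 3699 genes (17.5%), and in 2116 genes (10.0%) all 9 differences between a KO MPP+ and a KO PBS sample lay beyond all 9 of WT, all 285 called genes among them. For scale, the MPP+ effect itself was called for 10083 genes in KO (47.7%) and for 11667 genes in WT (55.2%). Most MPP+ responses therefore carried no called difference between the genotypes at this sample number. The median interaction was 1.04 among genes called higher, -0.67 among genes called lower and -0.01 among all tested genes. Protein-coding genes made up 271 of the 285.

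**Figure D1:**
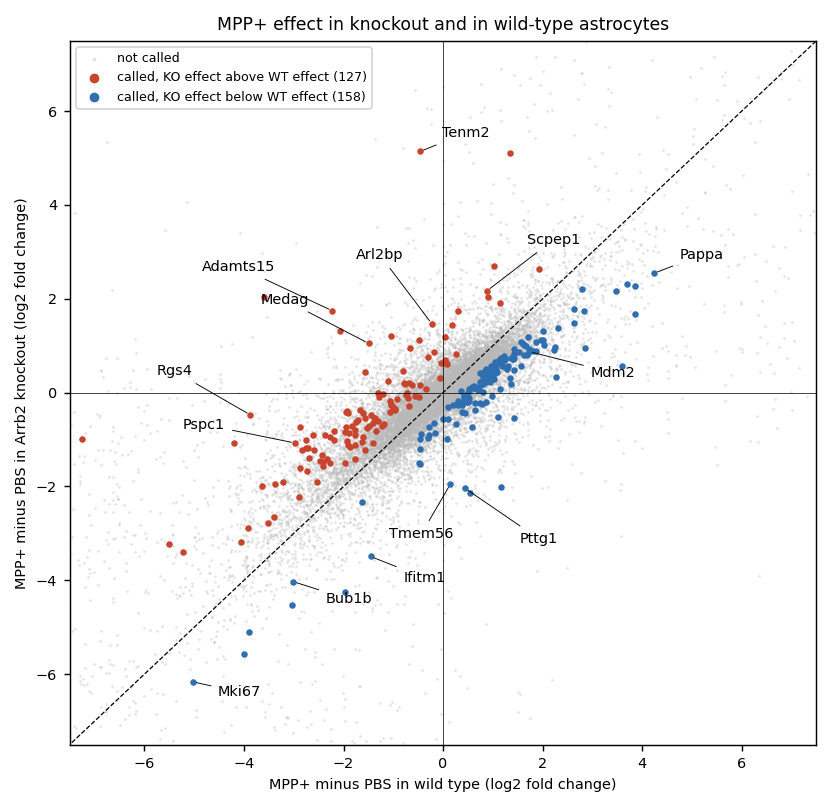
The MPP+ effect in KO (vertical axis) against the MPP+ effect in WT (horizontal axis), both as log2 fold change of MPP+ over PBS, with 1 point per tested gene; the dashed line marks equal effects. The 127 genes called higher (red) lie above the line and the 158 called lower (blue) below it, most of them nearer to zero on the KO axis than on the WT axis; 201 genes, 9 of them called, lie outside the axes.

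The most frequent shape of a called interaction was a response in the same direction that was smaller in KO. It held for 192 of the 285 called genes (67.4%), where 53.2% of all tested genes had such a pair of estimates. A response in the same direction but larger in KO was seen in 35 called genes (12.3%, against 30.6% of all tested genes). Estimates of opposite sign were seen in 58 (20.4%, against 16.2%), and in 17 of these both effects were called by themselves. The shares lay nearer to those of all tested genes in the 47 genes also called in each of the 12 fits lacking 1 library. Of these 47, 28 had a smaller response in KO (59.6%), 11 a larger one (23.4%) and 8 opposite signs (17%). Among called genes, the MPP+ effect was called in both genotypes for 200, in WT only for 63 and in KO only for 22. These classes were not counted over all tested genes, where the effect was called more often in WT (55.2%) than in KO (47.7%). The genotypes themselves differed by a called amount for 16.9% of tested genes in MPP+ (7.87% higher and 9% lower in KO) and for 11% in PBS (5.34% higher and 5.66% lower). Among called interaction genes they differed in MPP+ only for 133, in PBS only for 89 and in both for 63. So for 89 genes the interaction came with genotypes that started apart in PBS and had no called difference in MPP+. Ackr3, Icam1, Id4, Atf3 and Ppp2r2c, described below, were among them. The classes of genotype difference were not counted over all tested genes either. The shapes are read from the same fit that made the calls, and these counts carry no test of their own.

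The number of calls rested on single libraries more than the direction of any named gene did. Without WT MPP+ replicate 1, the sample that stood apart, 1553 of 21898 genes were called (7.09%), 759 higher (3.47%) and 794 lower (3.63%), and all 285 were among them. Without KO PBS replicate 2 there were 394. Leaving out any other library lowered the count, to 98, 184 and 92 without KO MPP+ replicates 1, 2 and 3, to 92 and 63 without KO PBS replicates 1 and 3, to 106 and 86 without WT MPP+ replicates 2 and 3, and to 105, 63 and 66 without WT PBS replicates 1, 2 and 3. A replicate block within genotype, which treats same-numbered samples of a genotype as pairs, called 32 genes (15 higher, 17 lower). No member of the p53 or Nrf2 target lists read below was among them. A set of 47 genes (0.222% of those tested), 27 higher and 20 lower, was called in the fit of all samples and in each of the 12 fits that lacked 1 library. The genes described first below are the 12 with the largest positive and the 12 with the largest negative interaction among these, with a group mean of at least 5 CPM.

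**Figure D2:**
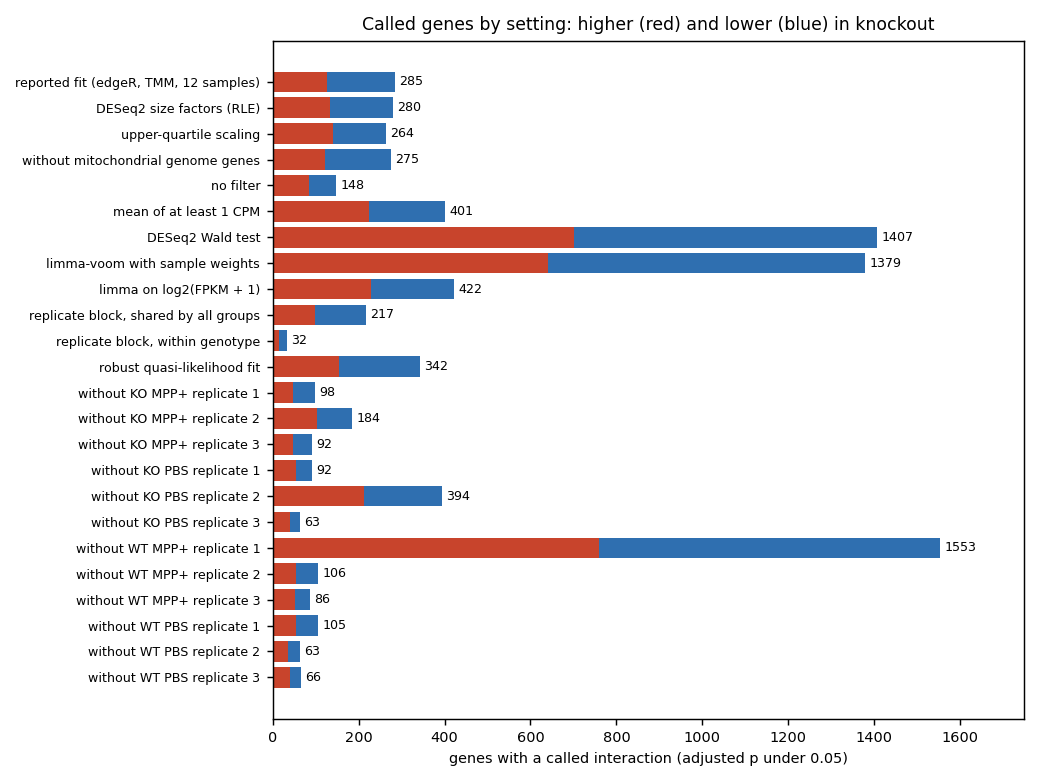
Number of genes with a called interaction (horizontal axis, adjusted p under 0.05) in the reported fit, under other scalings, filters, tools and replicate blocks, and with each library left out in turn; red bars are genes called higher and blue bars genes called lower. Around the reported 285, leaving out 1 library gave 63 to 1553 calls, the most without WT MPP+ replicate 1.

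Tenm2 had the largest positive interaction of these genes. It encodes teneurin-2, a cell adhesion protein that binds latrophilins, which are G protein-coupled receptors (ENSMUSG00000049336, GRCm38 chr11:36006656-37235964, minus strand). It had 8.39, 9.11 and 6.59 CPM in KO MPP+ and 0.284, 0.104 and 0.29 CPM in KO PBS samples, against 0.591, 0.393 and 0.323 CPM in WT MPP+ and 0.715, 0.41 and 0.676 CPM in WT PBS samples. The 3 KO MPP+ samples stood far above every other sample, and the WT groups overlapped. The MPP+ effect was 5.14 ± 0.402 in KO and -0.46 ± 0.361 in WT, an interaction of 5.60 ± 0.529 (adjusted p = 0.00154). The KO PBS group holds few counts of this gene, 45 over its 3 libraries, and on the log2(FPKM + 1) scale, which shrinks low genes, the interaction was 0.71 and still called.

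Medag, a gene known for its part in adipocyte differentiation, moved in opposite directions (ENSMUSG00000029659, GRCm38 chr5:149411749-149431723, plus strand). It had 61.2, 45.7 and 83.7 CPM in KO MPP+ and 30.4, 24 and 37.6 CPM in KO PBS samples, against 7.21, 3.99 and 5.02 CPM in WT MPP+ and 14.3, 16.3 and 15.2 CPM in WT PBS samples. The 4 groups did not overlap, and MPP+ widened the distance between the genotypes. Its effect was 1.05 ± 0.247 in KO and -1.50 ± 0.255 in WT, both called, with an interaction of 2.55 ± 0.355 (adjusted p = 0.0121). The fibroblast and meningeal marker sum was also higher in every KO sample (1330 CPM or more) than in every WT MPP+ sample (703 CPM or less). Samples ranked alike by Medag and by this sum within KO MPP+, KO PBS and WT MPP+, and in reverse within WT PBS. Of the 14 markers in the sum, 0 had a called interaction and 0 an unadjusted p under 0.05, with a median of 0.48. The sum spanned 460 to 1420 CPM within WT PBS, a spread that limits such calls. The part of these markers' cells in the values of Medag and of other genes was not tested.

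Scpep1, a serine carboxypeptidase of the secretory and lysosomal compartments, had the smallest adjusted p of the named genes (ENSMUSG00000000278, GRCm38 chr11:88924020-88955465, minus strand). It had 261, 254 and 253 CPM in KO MPP+ and 57.1, 56.5 and 56.9 CPM in KO PBS samples, against 771, 791 and 805 CPM in WT MPP+ and 438, 416 and 427 CPM in WT PBS samples. All 4 groups were apart and tight, with KO below WT in both treatments. The gene rose in both genotypes, by 2.17 ± 0.0434 in KO and 0.89 ± 0.0418 in WT, an interaction of 1.29 ± 0.0589 (adjusted p = 3.42e-06). It lies 18.49 Mb from Arrb2 on the same chromosome.

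Arl2bp, which binds the small GTPase ARL2 and is needed in photoreceptor cilia, showed a different shape (ENSMUSG00000031776, GRCm38 chr8:94666600-94674425, plus strand). It had 129, 111 and 114 CPM in KO MPP+ and 42.6, 43.6 and 41.5 CPM in KO PBS samples, against 109, 111 and 111 CPM in WT MPP+ and 119, 125 and 143 CPM in WT PBS samples. KO PBS alone was low, and KO MPP+ samples overlapped the WT samples. The effect of MPP+ was 1.47 ± 0.0755 in KO and -0.23 ± 0.0738 in WT (interaction 1.70 ± 0.105, adjusted p = 4.65e-05), and KO minus WT was -1.60 ± 0.0758 in PBS and 0.10 ± 0.0738 in MPP+. Fam171b had the same order of groups in PBS, with mean levels of 89.2 CPM in KO MPP+, 26.6 CPM in KO PBS, 146 CPM in WT MPP+ and 118 CPM in WT PBS samples, and an interaction of 1.44 ± 0.114.

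Pspc1, a protein of the nuclear bodies called paraspeckles, fell in both genotypes and fell less in KO (ENSMUSG00000021938, GRCm38 chr14:56720710-56778316, minus strand). It had 13.7, 12 and 14.3 CPM in KO MPP+ and 34.5, 25.2 and 24.4 CPM in KO PBS samples, against 4.57, 5.59 and 5.69 CPM in WT MPP+ and 40.1, 44.6 and 39.9 CPM in WT PBS samples. KO was below WT in PBS and above WT in MPP+, with no overlap. Its MPP+ effect was -1.07 ± 0.14 in KO and -2.97 ± 0.15 in WT (interaction 1.90 ± 0.199, adjusted p = 0.00363). A fall in WT that was smaller in KO was also seen in Antxr1, a collagen-binding receptor (1.30 ± 0.191), Olfml3, a secreted olfactomedin-domain protein (1.52 ± 0.222), and Mapk8ip2, a scaffold of the JNK kinase cascade (1.56 ± 0.195). Unlike Pspc1, Olfml3 was lower in KO in both treatments, with means of 9.23 against 53.5 CPM in PBS and 4.05 against 8.21 CPM in MPP+. For Steap3, an endosomal iron reductase, the effect was -0.02 ± 0.133 in KO, which was not called, and -1.30 ± 0.135 in WT (interaction 1.28 ± 0.189). Gm3716, a long noncoding RNA, had an effect of 0.44 ± 0.177 in KO, not called, and of -1.56 ± 0.194 in WT (interaction 2.01 ± 0.262). Ifi209, an interferon-inducible gene of the HIN-200 family, rose in both, by 2.71 ± 0.151 in KO and 1.03 ± 0.144 in WT (interaction 1.67 ± 0.203).

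**Figure D3:**
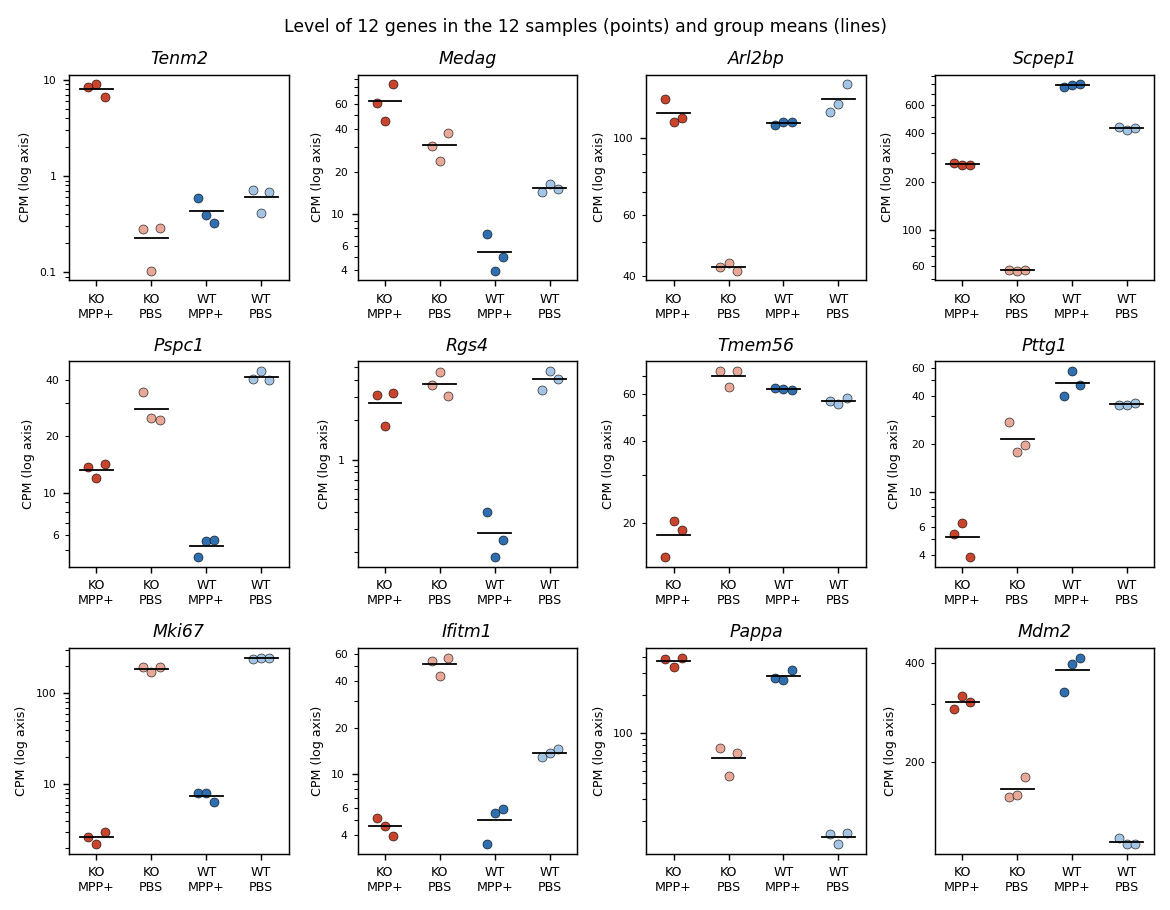
Level of 12 named genes in CPM (log axis) in the 4 groups, from left to right KO MPP+, KO PBS, WT MPP+ and WT PBS; points are the 3 samples of a group and lines are group means. Tenm2 is high in KO MPP+ samples and Tmem56 low in them, while in Arl2bp and Ifitm1 the KO PBS samples stand apart.

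Among the 12 negative interactions of this set, Pttg1 had the largest. It encodes securin, which holds back separase until anaphase (ENSMUSG00000020415, GRCm38 chr11:43420250-43426251, minus strand). It had 5.41, 6.33 and 3.85 CPM in KO MPP+ and 27.2, 17.6 and 19.5 CPM in KO PBS samples, against 40, 57.4 and 46.6 CPM in WT MPP+ and 35.2, 34.8 and 35.8 CPM in WT PBS samples. The 4 groups did not overlap. The MPP+ effect was -2.04 ± 0.208 in KO, and 0.45 ± 0.196 in WT, where it was not called, giving an interaction of -2.49 ± 0.285 (adjusted p = 0.0071).

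Tmem56, a transmembrane protein gene, fell in KO, with no called change in WT (ENSMUSG00000028132, GRCm38 chr3:121201761-121283098, minus strand). It had 14.9, 20.4 and 18.8 CPM in KO MPP+ and 72.9, 63.4 and 73 CPM in KO PBS samples, against 62.8, 62.6 and 61.8 CPM in WT MPP+ and 56.5, 54.8 and 58 CPM in WT PBS samples. The KO MPP+ samples alone were low. Its effect was -1.95 ± 0.104 in KO and 0.14 ± 0.1 in WT, not called, with an interaction of -2.10 ± 0.143 (adjusted p = 8.64e-05). Mybl1, a Myb-family transcription factor, also fell in KO with no called change in WT, at -0.98 ± 0.11 in KO and 0.08 ± 0.109 in WT (interaction -1.06 ± 0.155). Unlike Tmem56, it was higher in KO in PBS (0.52 ± 0.109) and lower in KO in MPP+ (-0.54 ± 0.11), both called.

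Ifitm1, an interferon-induced membrane protein, fell in both genotypes and ended at overlapping levels (ENSMUSG00000025491, GRCm38 chr7:140967221-140969825, plus strand). It had 5.16, 4.6 and 3.95 CPM in KO MPP+ and 54, 43.4 and 57 CPM in KO PBS samples, against 3.49, 5.58 and 5.89 CPM in WT MPP+ and 12.9, 13.7 and 14.5 CPM in WT PBS samples. KO and WT overlapped in MPP+ and did not in PBS. The interaction was -2.04 ± 0.259 (adjusted p = 0.0093). Pappa, a metalloproteinase that cleaves insulin-like growth factor binding proteins, rose in both and rose less in KO, where PBS samples were already higher (ENSMUSG00000028370, GRCm38 chr4:65124174-65357509, plus strand). It had 383, 335 and 396 CPM in KO MPP+ and 76.5, 45.2 and 69 CPM in KO PBS samples, against 272, 261 and 317 CPM in WT MPP+ and 15.7, 13.1 and 16 CPM in WT PBS samples. MPP+ raised it by 2.55 ± 0.173 in KO and by 4.25 ± 0.188 in WT, an interaction of -1.70 ± 0.234 (adjusted p = 0.0121). KO minus WT was 2.09 ± 0.172 in PBS and 0.39 ± 0.164 in MPP+, the second not called (adjusted p = 0.128).

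The other negative interactions of this set ran from -1.30 to -0.89. Ppp2r2c, a regulatory subunit of protein phosphatase 2A, rose by 2.17 ± 0.128 in KO and 3.48 ± 0.136 in WT. Aaas, a protein of the nuclear pore, rose by 0.89 ± 0.103 in KO and 1.87 ± 0.105 in WT. Hpcal1, a calcium sensor of the visinin family, had an effect of 0.07 ± 0.111 in KO, not called, and rose by 1.14 ± 0.112 in WT. Gria4, a subunit of AMPA-type glutamate receptors, changed by -1.49 ± 0.102 in KO and -0.49 ± 0.0993 in WT, a deeper fall in KO. Plxna2, a semaphorin receptor, changed by -0.44 ± 0.086 in KO and by 0.45 ± 0.0862 in WT, both called and opposite.

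Of the 17 called genes whose effects were both called and of opposite sign, the 6 with the largest interaction and at least 5 CPM were Adamts15, Medag, Gm14296, Arl2bp, Sox2ot and Nrarp. Adamts15, a secreted metalloproteinase that cuts proteoglycans, had 14, 7.29 and 14.7 CPM in KO MPP+ and 3.28, 4.94 and 2.5 CPM in KO PBS samples. It had 1.14, 0.287 and 0.985 CPM in WT MPP+ and 5.66, 2.39 and 3.24 CPM in WT PBS samples. The MPP+ groups of the genotypes were far apart and the PBS groups overlapped. Its interaction was 3.97 ± 0.689 (adjusted p = 0.0235) and held in 5 of the 12 fits that lacked 1 library. Nrarp, a feedback inhibitor of Notch signalling, changed by -0.73 ± 0.164 in KO and 0.58 ± 0.163 in WT, an interaction of -1.31 ± 0.232 (adjusted p = 0.0238) called in 5 of those fits. Gm14296, whose reads may be shared with near-identical copies, had 2.26 ± 0.474, and Sox2ot, a long noncoding transcript that contains the Sox2 gene, had 1.61 ± 0.321; they were called in 3 and 4 of those fits.

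The strand setting of the counting is not given in the sources used here. Of 69 genes named by rule, 33 overlap another gene of GENCODE release M21, among them Tenm2, Medag, Scpep1, Tmem56, Ifi209, Antxr1, Ppp2r2c, Mki67, Gria4, Plxna2, Nrarp, Sox2ot, Plk1, Hapln1, Ncan, Gclm, G6pdx, Nrg1, Icam1, Aldh1l1, Id4 and both beta-arrestin genes, so reads of such a pair cannot be told apart.

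Members of 38 gene lists, chosen with earlier results of these data known, were then read against the background of 1.35% called. That background includes genes at low levels, where calls are fewer. The median of the highest group mean was 67.44 CPM among called and 13.64 CPM among all tested genes. A separate fit of 15113 genes at a mean of 1 CPM or more called 401. At least 1 member was called in 22 lists and none in 16. The lists with the most called members were those of mitosis and of Nrf2 targets, with 5 each, followed by p53 targets, synapse-forming proteins and G protein-coupled receptors with 4 each.

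**Figure D4:**
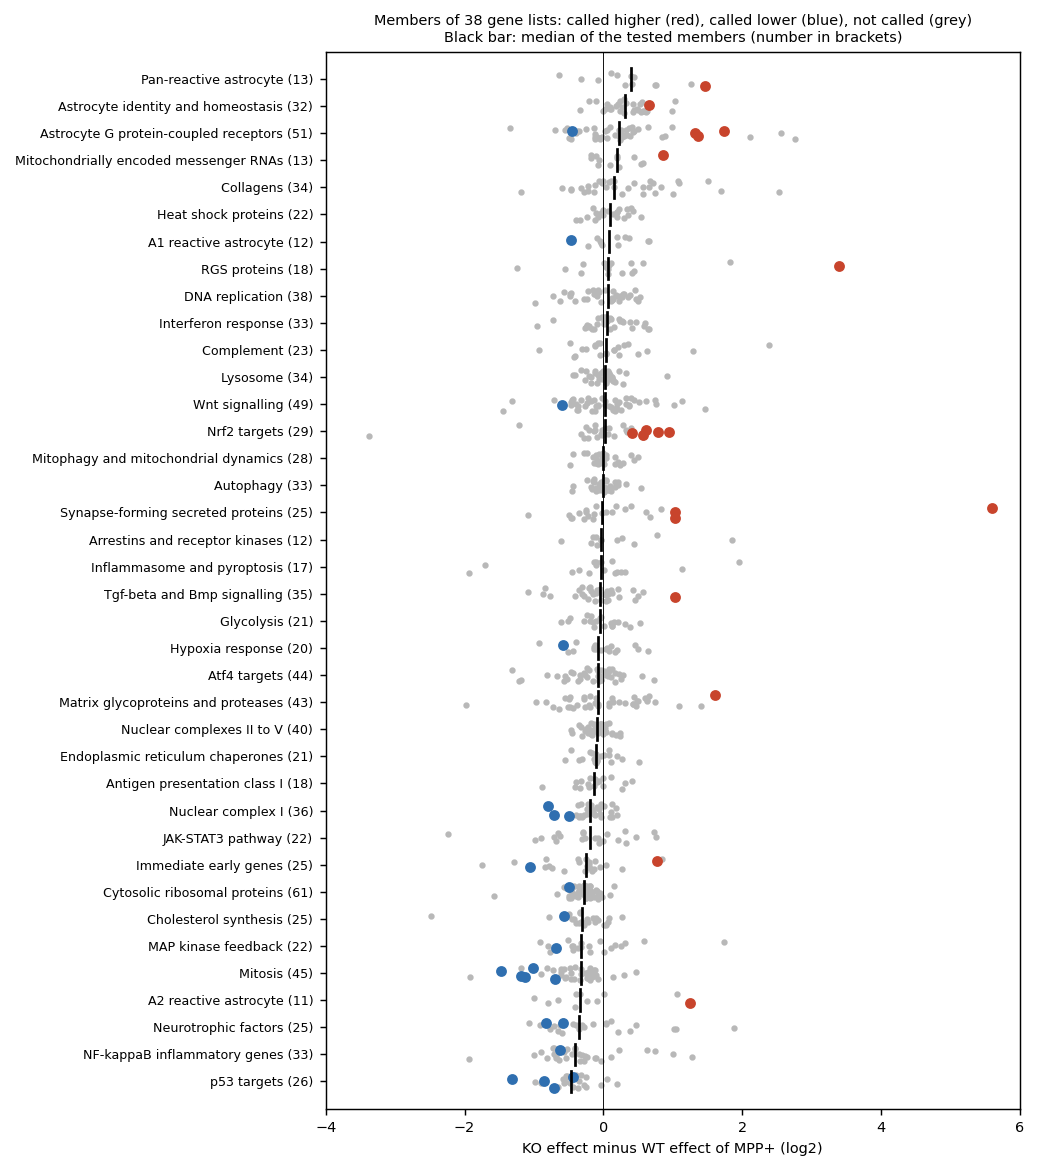
Interaction (horizontal axis, KO effect minus WT effect of MPP+, log2) of the tested members of 38 gene lists, with 1 point per gene, the called ones in red (called higher) or blue (called lower), and a black bar at the median of each list. The p53 targets sit lowest, with a median of -0.46, and the pan-reactive astrocyte genes highest, at 0.4; Hapln1 is left out because WT MPP+ samples had 0 counts, and 2 uncalled members lie outside the axes.

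Most members of the p53 target list rose with MPP+ in both genotypes, and 4 of them rose less in KO by a called amount. Of 26 tested members of that list, which holds p53 itself (Trp53), 23 rose with MPP+ in KO (23.1% of all tested genes did) and 23 in WT (26.8% of all), while 1 fell in KO and 2 in WT, with a median effect of 0.81 in KO and 1.36 in WT. The interaction was negative for 24 of the 26 (10846 of 21129 over all genes), with a median of -0.46. It was called lower for 4 (15.4%), Plk2, Mdm2, Tnfrsf10b and Trp53, and higher for none. In PBS these 4 were already higher in KO by called amounts, 0.68 for Plk2, 0.53 for Mdm2, 0.45 for Tnfrsf10b and 0.22 for Trp53. In MPP+ they were lower in KO, called for Plk2 (-0.64), Mdm2 (-0.32) and Trp53 (-0.21) and not called for Tnfrsf10b (-0.27). Mdm2, the ubiquitin ligase that limits p53, had 291, 317 and 304 CPM in KO MPP+ and 157, 159 and 181 CPM in KO PBS samples, against 326, 398 and 415 CPM in WT MPP+ and 118, 113 and 113 CPM in WT PBS samples. The 4 groups did not overlap: KO was above WT in PBS and below it in MPP+. The effect was 0.88 ± 0.0875 in KO and 1.73 ± 0.0893 in WT, an interaction of -0.85 ± 0.123 (adjusted p = 0.0139), called in all 12 fits that lacked 1 library. Plk2, a stress-induced kinase, rose by 0.90 ± 0.151 in KO and 2.22 ± 0.156 in WT (interaction -1.32 ± 0.212, called in 6 of the 12 fits). For Tnfrsf10b, a death receptor of the ligand TRAIL, the rises were 1.31 ± 0.0872 in KO and 2.02 ± 0.089 in WT (-0.71 ± 0.121, 3 of 12). Trp53 RNA rose by 0.36 ± 0.0474 in KO and 0.80 ± 0.0476 in WT (-0.43 ± 0.0669, 7 of 12), and the gene lies within 1 Mb of Arrb2. As many as 17 of the 26 were called lower without WT MPP+ replicate 1. The count was 1 without KO PBS replicate 1 or 3 or WT PBS replicate 3, 2 without KO MPP+ replicate 1 or 3, WT MPP+ replicate 3 or WT PBS replicate 1 or 2, and 3 to 5 without another library. The wider annotation term of p53 signalling, 70 tested genes read after their values were seen, had 3 called lower and 1 higher, Steap3 (5.71%), with a median interaction of -0.23.

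**Figure D5:**
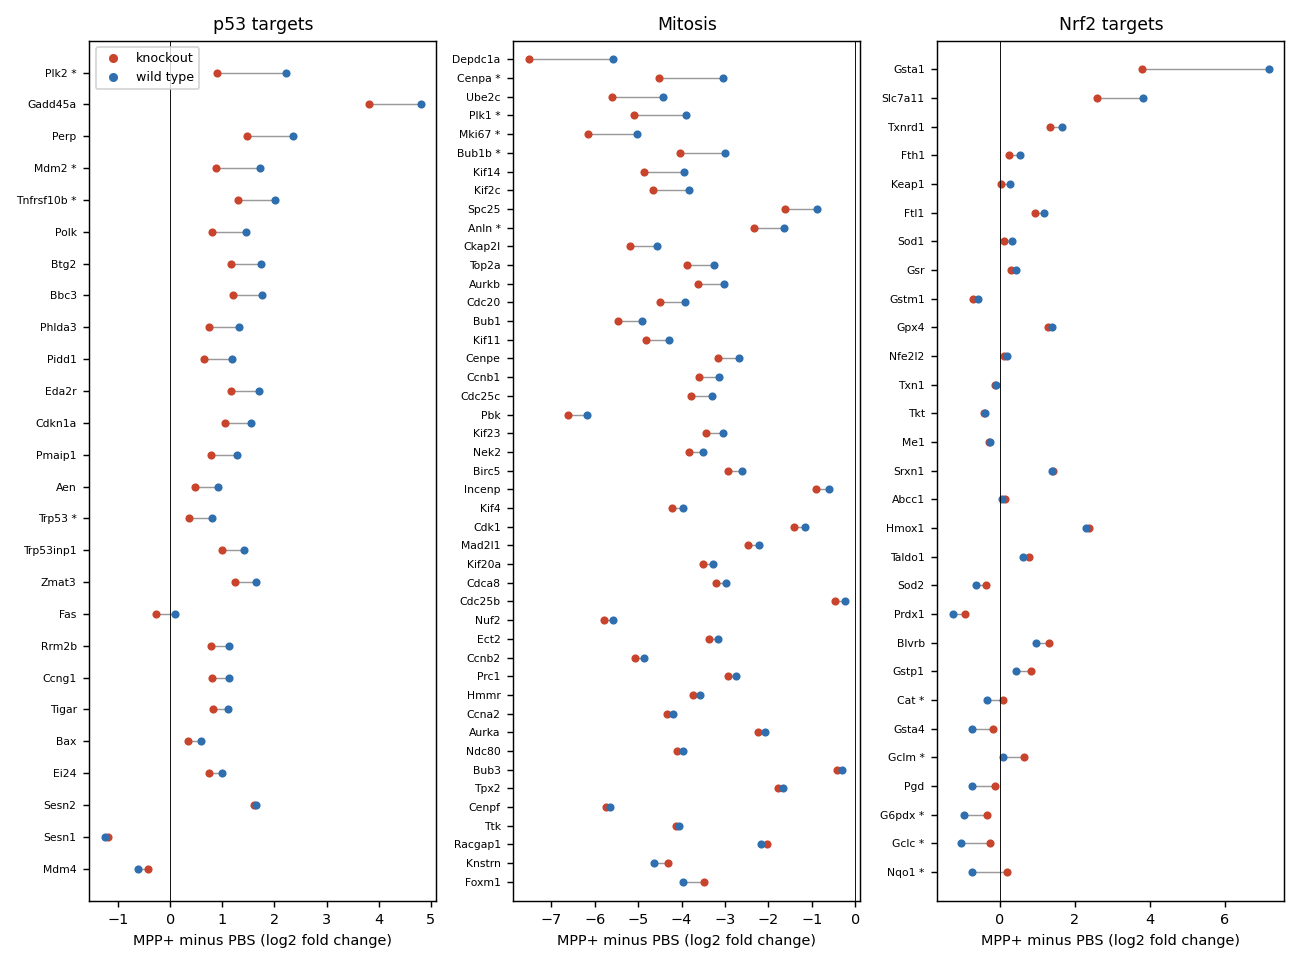
MPP+ effect (horizontal axis, log2 fold change over PBS) in KO (red) and WT (blue) for the tested members of 3 gene lists, ordered by the interaction; an asterisk marks a called interaction. The KO point lies below the WT point for 24 of 26 p53 targets and 42 of 45 mitosis genes, and above it for the 5 called Nrf2 targets.

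Mitosis genes fell strongly with MPP+ in both genotypes, and 5 of them fell further in KO. Of 45 tested members, 45 fell in KO (24.7% of all tested genes did) and 44 in WT (28.4% of all), with a median effect of -3.83 in KO and -3.31 in WT. The interaction was negative for 42 of 45, with a median of -0.33, and called lower for 5 (11.1%), Cenpa, Plk1, Mki67, Bub1b and Anln, and higher for none. Mki67, whose protein coats mitotic chromosomes and marks dividing cells, had 2.66, 2.19 and 2.99 CPM in KO MPP+ and 194, 172 and 197 CPM in KO PBS samples, against 8.1, 8.01 and 6.37 CPM in WT MPP+ and 238, 248 and 248 CPM in WT PBS samples. KO lay below WT in both treatments with no overlap, and by the larger factor in MPP+. The effect was -6.16 ± 0.138 in KO and -5.03 ± 0.129 in WT, an interaction of -1.14 ± 0.16 (adjusted p = 0.0122). Bub1b, a kinase of the spindle checkpoint, had 2.17, 2.55 and 2.67 CPM in KO MPP+ and 44.1, 36.6 and 40 CPM in KO PBS samples, against 5.94, 7.04 and 6.15 CPM in WT MPP+ and 47.9, 52.9 and 53.3 CPM in WT PBS samples. Its 4 groups had the same order as those of Mki67, and its interaction was -1.02 ± 0.149 (adjusted p = 0.0142). Plk1, a mitotic kinase, had -1.18 ± 0.187, Cenpa, the histone variant of centromeres, -1.48 ± 0.27, and Anln, a scaffold of cytokinesis that was named after its values were seen, -0.69 ± 0.127; they were called in 9, 3 and 2 of the 12 fits that lacked 1 library. The genes of DNA replication, 38 tested, had a median interaction of 0.07 and none called, with median effects of -1.56 in KO and -1.53 in WT.

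The mitosis count was 7 without WT MPP+ replicate 1, 6 without KO PBS replicate 2, 4 without WT MPP+ replicate 3, 2 without KO PBS replicate 3 or WT PBS replicate 2 or 3, and 3 without any other library. On log2(FPKM + 1), a scale that compresses low values, it was 0 and the list's median was -0.05.

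The promoters of the called mitosis genes are shown because the list is known to be held back through a short element, TTTGAA, the cell cycle genes homology region, to which complexes with the MuvB core bind. RefSeq sequences (GRCm38.p6, 250 bases before to 50 after the start of the transcript) were searched for it on both strands, and matches are in capitals, 5′ to 3′ along the gene. All 5 called members hold a match, as do 28 of 37 tested mitosis members with a RefSeq promoter (75.7%), 12.6% of 13239 promoters of tested genes and 18.1% of all 27025. In Mki67 (chr7:135716330-135716629, minus strand) the matches begin 116 and 98 bases before the start. In Plk1 (chr7:122159185-122159484, plus strand) and Bub1b (chr2:118597961-118598260, plus strand) they begin 30 and 40 bases after it.
Mki67: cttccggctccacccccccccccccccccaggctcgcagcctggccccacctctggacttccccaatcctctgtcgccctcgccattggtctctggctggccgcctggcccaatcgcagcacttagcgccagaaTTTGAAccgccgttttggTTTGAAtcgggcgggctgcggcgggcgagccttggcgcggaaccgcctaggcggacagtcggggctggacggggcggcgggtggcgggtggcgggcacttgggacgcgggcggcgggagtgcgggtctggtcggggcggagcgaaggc
Plk1: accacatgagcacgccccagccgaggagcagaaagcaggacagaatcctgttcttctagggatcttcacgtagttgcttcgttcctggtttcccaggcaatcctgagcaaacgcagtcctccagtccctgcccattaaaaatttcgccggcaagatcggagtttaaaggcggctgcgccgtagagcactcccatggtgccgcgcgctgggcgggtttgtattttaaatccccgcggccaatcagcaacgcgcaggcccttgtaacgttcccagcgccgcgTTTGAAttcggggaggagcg
Bub1b: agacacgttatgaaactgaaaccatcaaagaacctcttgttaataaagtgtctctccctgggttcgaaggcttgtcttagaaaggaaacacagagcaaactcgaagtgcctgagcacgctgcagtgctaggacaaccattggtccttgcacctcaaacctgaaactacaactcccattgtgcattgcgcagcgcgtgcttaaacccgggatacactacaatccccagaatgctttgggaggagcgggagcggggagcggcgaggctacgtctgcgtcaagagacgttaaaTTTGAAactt
The element does not set called members apart from uncalled ones of the same list, most of which hold it too.

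Nrf2 is the transcription factor of the antioxidant response. Its target list was split: 5 of 29 tested members had a called positive interaction (17.2%), none a negative one, and the median of the list was 0.03. The 5 were Nqo1, Gclc, G6pdx, Gclm and, named after its values were seen, Cat. Gclc, the catalytic subunit of the ligase that starts glutathione synthesis, had 127, 110 and 127 CPM in KO MPP+ and 139, 158 and 141 CPM in KO PBS samples, against 79.4, 74.3 and 65.7 CPM in WT MPP+ and 146, 160 and 150 CPM in WT PBS samples. KO and WT overlapped in PBS and were apart in MPP+, with KO above WT. The effect was -0.26 ± 0.0846 in KO and -1.05 ± 0.0855 in WT, an interaction of 0.79 ± 0.12 (adjusted p = 0.0161). Gclm, the modifier subunit of the same enzyme, had 156, 135 and 169 CPM in KO MPP+ and 97.6, 95.9 and 103 CPM in KO PBS samples, against 105, 106 and 91.7 CPM in WT MPP+ and 99.8, 97.7 and 91.1 CPM in WT PBS samples. KO MPP+ samples alone were high, and the interaction was 0.57 ± 0.119 (adjusted p = 0.0455). G6pdx, the enzyme that feeds the pentose phosphate pathway and makes NADPH, had effects of -0.35 ± 0.0661 in KO and -0.97 ± 0.0666 in WT (0.62 ± 0.0934). Nqo1, a quinone reductase, had effects of 0.18 ± 0.124 in KO, not called, and -0.76 ± 0.126 in WT (0.94 ± 0.176). Cat, catalase, had 0.42 ± 0.0826. Gclc and G6pdx were called in all 12 fits that lacked 1 library, Nqo1 in 4, Cat in 3 and Gclm in 2.

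Other classical targets of Nrf2 were not called. Hmox1, the inducible heme oxygenase, Txnrd1, thioredoxin reductase, and Srxn1, sulfiredoxin, had interactions of 0.08, -0.32 and 0.03. The list had 7 called higher and 1 lower without WT MPP+ replicate 1; without KO MPP+ replicate 2 or KO PBS replicate 2 it had 5 higher, without WT PBS replicate 2 it had 3, and without any of the other 8 libraries 2.

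Promoters of the Nrf2 list were searched on both strands for TGACNNNGC, the core of the antioxidant response element, and those of Gclm and G6pdx are shown because they are the called members with a match. Of 4 called members with a RefSeq promoter, these 2 hold it, beside 7 of 24 tested members (29.2%), 14.6% of promoters of tested genes and 12.5% of all 27025. The match, on the opposite strand and so printed as its reverse complement, begins 134 bases before the start in Gclm (chr3:122245307-122245606, plus strand) and 57 before it in G6pdx (chrX:74428831-74429130, minus strand).
Gclm: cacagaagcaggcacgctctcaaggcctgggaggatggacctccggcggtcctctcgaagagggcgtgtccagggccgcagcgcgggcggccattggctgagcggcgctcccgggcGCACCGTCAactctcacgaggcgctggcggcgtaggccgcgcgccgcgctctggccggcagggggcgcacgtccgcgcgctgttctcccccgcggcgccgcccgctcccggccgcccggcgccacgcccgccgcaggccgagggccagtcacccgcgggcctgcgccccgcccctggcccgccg
G6pdx: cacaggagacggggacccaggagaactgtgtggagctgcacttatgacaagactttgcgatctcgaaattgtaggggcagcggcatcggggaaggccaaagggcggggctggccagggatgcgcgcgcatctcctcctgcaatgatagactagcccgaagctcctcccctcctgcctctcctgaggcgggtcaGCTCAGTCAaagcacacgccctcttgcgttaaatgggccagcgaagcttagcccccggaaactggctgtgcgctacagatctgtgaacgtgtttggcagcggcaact

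Proteins that astrocytes and neurons place in the matrix or at synapses held 4 called members of 25 tested (16%), all 4 positive: Hapln1, Tenm2, Bcan and Ncan. The list as a whole had no such direction: the interaction was positive for 12 and negative for 13, with a median of -0.02. Bcan, Ncan and Hapln1 encode brevican, neurocan and the link protein that ties such proteoglycans to hyaluronan, parts of perineuronal nets. Bcan had 64.3, 59.8 and 62.4 CPM in KO MPP+ and 110, 117 and 110 CPM in KO PBS samples, against 13.9, 20.5 and 15 CPM in WT MPP+ and 59.5, 61.5 and 62.8 CPM in WT PBS samples. The KO MPP+ samples lay at the level of WT PBS samples. Its effect was -0.86 ± 0.114 in KO and -1.90 ± 0.118 in WT, an interaction of 1.04 ± 0.162 (adjusted p = 0.0163), called in all 12 fits that lacked 1 library. Ncan fell by more than Bcan in both, at -2.90 ± 0.165 in KO and -3.93 ± 0.174 in WT (1.03 ± 0.219, called in 1 of the 12 fits). Hapln1 had 0.241, 0.0577 and 0.162 CPM in KO MPP+ and 3.34, 2.92 and 3.49 CPM in KO PBS samples, against 0, 0 and 0 CPM in WT MPP+ and 3.34, 2.77 and 3.85 CPM in WT PBS samples. WT MPP+ had 0 counts; taken at 3 counts for the whole group, it was at least 220-fold lower in MPP+ than in PBS in WT, beside 21.1-fold in KO. Its call (adjusted p = 0.0254) held in 3 of the 12 fits. The call was lost in limma-voom with sample weights (adjusted p = 0.0532), under the replicate block within genotype, and on log2(FPKM + 1) (0.06, adjusted p = 0.64). Without WT MPP+ replicate 1 the list had 4 called higher and 2 lower, without KO MPP+ replicate 2 or KO PBS replicate 2 it had 3 higher, and without any of the other 9 libraries 2.

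Genes of G protein signalling, the field of beta-arrestin 2, held a few called members. Of 51 tested receptors of astrocytes, 3 were called higher and 1 lower (7.84%), with a median interaction of 0.22. Adra1b, an alpha-1 adrenergic receptor, had effects of -1.02 ± 0.234 in KO and -2.76 ± 0.252 in WT (1.74 ± 0.336). Ackr3, an atypical chemokine receptor that signals through arrestins, had -0.82 ± 0.151 in KO and -2.19 ± 0.156 in WT (1.36 ± 0.212). For Ackr3, KO minus WT was -1.07 ± 0.15 in PBS, which was called, and 0.29 ± 0.151 in MPP+, which was not. Ednra, an endothelin receptor, had -1.90 ± 0.19 in KO and -3.22 ± 0.201 in WT (1.32 ± 0.264). Lpar6, a receptor of lysophosphatidic acid that lies inside Rb1 on the other strand, had -0.46 ± 0.0982. These 4 were called in 2, 11, 3 and 1 of the fits that lacked 1 library. Without WT MPP+ replicate 1 the list had 7 called higher and 4 lower, without KO MPP+ replicate 1 or 2 or KO PBS replicate 2 it had 2 higher, without WT PBS replicate 2 none, and without any other library 1.

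Rgs4 was the called member among 18 tested RGS proteins, which speed up the switching-off of G proteins. It had 3.1, 1.8 and 3.21 CPM in KO MPP+ and 3.65, 4.6 and 3.04 CPM in KO PBS samples, against 0.399, 0.181 and 0.246 CPM in WT MPP+ and 3.4, 4.72 and 4.07 CPM in WT PBS samples. The WT MPP+ samples alone were low. Its effect was -0.47 ± 0.292 in KO, not called, and -3.87 ± 0.343 in WT, an interaction of 3.40 ± 0.442 (adjusted p = 0.00961), called in all 12 fits that lacked 1 library. None of 12 tested arrestins and receptor kinases was called, with 1 at an unadjusted p under 0.05 in each direction and 1 called lower by DESeq2; Arrdc4, an arrestin-domain protein, was called lower without WT MPP+ replicate 1 (-0.67, adjusted p = 0.0208). Dusp6, a phosphatase that switches off ERK, was the called member of 22 feedback genes of the MAP kinase pathway, with effects of -0.57 ± 0.1 in KO and 0.11 ± 0.0999 in WT (-0.68 ± 0.141); the list's median was -0.32, and without WT MPP+ replicate 1 there were 7 called lower, and without 10 of the other libraries none.

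Genes of complex I, the target of MPP+, had mostly negative interactions, few of them called. Of 36 nuclear subunits and factors tested, 29 had a negative interaction, with a median of -0.19, and 3 were called lower (8.33%). These were Ndufab1 (-0.80 ± 0.158), Ndufa6 (-0.71 ± 0.149) and Ndufv2 (-0.49 ± 0.105). Ndufa6 had an effect of 0.22 ± 0.105 in KO, not called, and of 0.94 ± 0.106 in WT. There were 4 called without WT MPP+ replicate 1, 3 without KO PBS replicate 2, and none without any other library. Among 40 subunits of complexes II to V, 29 also had a negative interaction (median -0.09) and none was called. Over all tested genes the interaction was negative for 10846 of 21129. On the mitochondrial genome, mt-Nd6 was the called member of 13 messenger RNAs, at -3.19 ± 0.132 in KO and -4.06 ± 0.137 in WT (0.87 ± 0.172); it lies opposite mt-Nd5 and its strand cannot be told apart here. Cytosolic ribosomal proteins had a negative interaction in 59 of 61 genes, with a median of -0.27 and median effects of 0.12 in KO and 0.47 in WT, yet Rps7 alone was called (-0.49 ± 0.0937). Of these, 13 were called lower without WT MPP+ replicate 1, and without 9 of the other libraries none; such genes have processed copies in the genome that can share reads.

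Growth factors, immediate early genes and inflammatory genes gave 1 or 2 calls a list. Nrg1, a ligand of ErbB receptors, rose by 1.13 ± 0.0777 in KO and 1.96 ± 0.0795 in WT (-0.83 ± 0.109, called in all 12 fits that lacked 1 library). Vegfa, the angiogenic growth factor, rose by 2.20 ± 0.0684 in KO and 2.79 ± 0.07 in WT (-0.58 ± 0.0928, 9 of 12). They were the called members of 25 neurotrophic factors, and Vegfa also that of 20 hypoxia genes. Icam1, an adhesion molecule induced by NF-kappaB, rose by 0.30 ± 0.0756 in KO and 0.92 ± 0.0762 in WT (-0.62 ± 0.107, 4 of 12); 27 of the 33 tested genes of that list had a negative interaction, with a median of -0.42. Among 25 immediate early genes, Atf3, a stress-induced transcription factor, was called higher (0.77 ± 0.135, 5 of 12) and Ccn1, a matrix-associated signalling protein, lower (-1.06 ± 0.191, 4 of 12).

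Astrocyte genes fell with MPP+ in both genotypes, and 1 of them by a called lesser amount in KO. Of 32 tested genes of astrocyte identity and homeostasis, 24 fell in KO and 24 in WT, and 28 had a positive interaction, with a median of 0.31. Aldh1l1, a folate enzyme used as a pan-astrocyte marker, was the called one. It had 260, 236 and 235 CPM in KO MPP+ and 291, 374 and 313 CPM in KO PBS samples, against 254, 265 and 234 CPM in WT MPP+ and 502, 557 and 527 CPM in WT PBS samples. The MPP+ groups overlapped, and KO lay below WT in PBS. Its interaction was 0.66 ± 0.127 (adjusted p = 0.0352). There were 3 calls without WT MPP+ replicate 1, 4 without KO PBS replicate 2 and none without any other library.

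Single members were called in further lists. A positive interaction was called for Id4, an inhibitor of differentiation factors in the Bmp list (1.03 ± 0.158, called in 11 of the 12 fits that lacked 1 library), Timp4, an inhibitor of matrix metalloproteinases (1.61 ± 0.325), Ptx3, a secreted pentraxin of the A2 reactive list (1.25 ± 0.258), and Aspg, an asparaginase of the pan-reactive list (1.46 ± 0.312). A negative interaction was called for Lrp5, a Wnt co-receptor (-0.60 ± 0.107), and Fbln5, an elastic fibre protein of the A1 reactive list (-0.46 ± 0.0972). Among marker lists of other cells, Notch3, a pericyte receptor (-0.62 ± 0.106), and Aqp1, a water channel of choroid plexus (-2.27 ± 0.48), had a called negative interaction. Apart from Id4, these genes were called in 1 to 4 of the 12 fits.

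None was called in the lists of Atf4 targets (44 tested, median interaction -0.08), interferon response (33, 0.05), class I antigen presentation (18, -0.13), inflammasome (17, -0.04), complement (23, 0.04), the JAK-STAT3 pathway (22, -0.2), glycolysis (21, -0.06), endoplasmic reticulum chaperones (21, -0.1), heat shock proteins (22, 0.1), collagens (34, 0.15), autophagy (33, 0), lysosome (34, 0.03) and mitophagy (28, 0). The Atf4 targets, which carry the amino acid response, rose in both genotypes, 41 of 44 in KO and 42 of 44 in WT, with median effects of 2.04 in KO and 2.17 in WT. Calls appeared in 9 of these lists without WT MPP+ replicate 1, among them 5 higher and 2 lower of the heat shock proteins, 6 higher and 1 lower of the collagens, and 3 lower of the Atf4 targets. A missing call does not show that the genotypes responded alike.

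In the fit of all samples, the chromosome of Arrb2 held no excess of calls. On chromosome 11, 19 of 1517 tested genes were called (1.25%), and within 30 Mb of Arrb2 it was 11 of 876 (1.26%), beside 1.36% of 19612 genes on other chromosomes. The difference between KO and WT in PBS was called for 14.4% of genes within that window and for 10.8% on other chromosomes. Of the 47 genes also called in each of the 12 fits that lacked 1 library, 5 lay on chromosome 11. That is 5 of 1517 tested genes there, beside 47 of 21129 on all chromosomes, and the difference was not tested. These 5 were Tenm2 (-34.43 Mb from Arrb2), Pttg1 (-27.01 Mb), Scpep1 (18.49 Mb), Stxbp4 (20.04 Mb) and Psmc3ip (30.66 Mb). Adra1b, called in fewer fits, lies at -26.66 Mb. The labels give no backcross, and the part of flanking sequence in these values was not tested.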

How the data were processed

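RNA from 12 samples of primary mouse astrocytes was sequenced from SMARTER mRNA libraries, per the labels' protocols. The authors deposited 1 table of whole-number counts and of FPKM values for 32742 genes; the submitters' processing notes name the builds GRCm38 and mm10. No label or header used here names the aligner, the counting program or its strand setting, which are thus not given. Depth was 64249029 to 69865569 counts per sample; floors cover counting error only.

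Counts were filtered with filterByExpr (at least 10 counts, 15 in total), scaled by TMM and tested with the quasi-likelihood F-test of edgeR 4.0.16 in R 4.3.3, in a model of 4 group means with 8 residual degrees of freedom. The interaction was (KO MPP+ minus KO PBS) minus (WT MPP+ minus WT PBS), with Benjamini-Hochberg adjustment over 21129 genes. The standard error is the log2 value divided by the root of F. The script was tested on simulated data. Alternatives were other scalings and filters, DESeq2 1.42.0, limma 3.58.1, replicate blocks and leaving out each sample. Limma was run as voom with sample weights, and on log2(FPKM + 1) from the FPKM values the authors deposited. A robust fit was added after seeing the data. Overlaps and biotypes came from GENCODE release M21, in which all 32742 identifiers were found.

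Genes named in the text were, by rule, Arrb2 and Arrb1; the 12 largest interactions in each direction among genes called in every fit lacking 1 library, at 5 CPM or more and with all 9 KO differences beyond all 9 of WT; the 6 largest with opposite called effects; up to 4 called members per list; and uncalled members as values. Some genes that were called are not reported here. The contrast and lists were chosen with earlier results of these data known.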

Additional observations from a re-analysis of the deposited data

Results flagged for a closer look

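The MPP+ effect differed between KO and WT, by the test of the difference itself in edgeR's quasi-likelihood fit, for 285 genes after Benjamini-Hochberg adjustment, with 3699 at an unadjusted p under 0.05. For 8 named genes the effects were also called in each genotype alone and ran in opposite directions. Medag rose in KO and fell in WT, an interaction of 2.55 on the log2 scale. Arl2bp did likewise, with 1.7. Adamts15 had 3.97, Gm14296 2.26 and Sox2ot 1.61, all up in KO and down in WT. Nrarp fell in KO and rose in WT, with -1.31, and so did Plxna2 with -0.89 and Lpar6 with -0.46. Medag, Arl2bp and Plxna2 were called in all 12 fits that lacked 1 library, and the other 5 in 1 to 5 of them.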

How the results depend on the processing

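None of the 69 genes named by rule reversed its interaction under any setting run, and the median interaction of all genes stayed between -0.017 and 0.031. Scaling moved the count of 285 (127 higher, 158 lower) little: DESeq2 size factors gave 280 (134 higher, 146 lower), upper-quartile scaling 264 (140 higher, 124 lower) and a fit without mitochondrial genome genes 275, and the added robust fit gave 342. Changing the test moved it more. DESeq2's test called 1407 (701 higher, 706 lower), 274 of the 285 among them. Limma-voom, which was run with sample weights, called 1379 (641 higher, 738 lower), 278 of the 285 among them. It called 3954 genes between KO and WT in PBS. The part of the weights in these counts was not tested. Without a filter 148 were called (84 higher, 64 lower), at a mean of 1 CPM or more 401 (225 higher, 176 lower), and on log2(FPKM + 1) 422 (229 higher, 193 lower); the cause was not tested. Leaving out 1 sample gave 63 to 1553 calls (35 to 759 higher, 24 to 794 lower). The same fits gave 8972 to 10495 MPP+ effects in KO and 10572 to 11660 in WT, and 2010 to 4746 differences between KO and WT in MPP+ and 1109 to 2753 in PBS. Deviations of same-numbered samples had correlations of 0, 0.04 and 0.12 in KO and 0.15, 0.13 and 0.04 in WT between the treatments. The labels give no shared source, and the reported fit did not take the numbers as pairs. Some values do follow the number. These are the lower Y-linked level of KO replicate 1, and marker sums of fibroblasts lowest in replicate 2 and of microglia lowest in replicate 3 of every group. Whether same-numbered samples share a source therefore cannot be told here, and the block counts below stand beside the reported ones. A replicate block shared by all groups called 217 genes, 184 of them among the 285. A replicate block within genotype, which costs further degrees of freedom, called 32 (15 higher, 17 lower), 26 of them among the 285; it left 0 called p53 targets, Nrf2 targets and receptors, 1 mitosis gene and 1 synapse-forming gene. Of the 24 genes named by size, 15 were called under every setting; 8 were lost under the block within genotype and 2 on log2(FPKM + 1). Genes at few counts, such as Tenm2 in KO PBS and Hapln1 in WT MPP+, limit how exactly a fold can be given.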

Other observations

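Terms outside the lists of the report were read after their values were seen, and carry no test. Of 261 tested genes with the cellular component term cilium, 9 had a called positive interaction and none a negative one (3.45%, beside 1.35% of all tested genes), with a median of 0.18. MPP+ lowered 108 of them in KO and 135 in WT, with median effects of -0.24 in KO and -0.45 in WT. Ttc30b, a subunit of the intraflagellar transport machinery, had 31.5, 29.4 and 35.5 CPM in KO MPP+ and 49, 50.5 and 49.9 CPM in KO PBS samples, against 29.4, 21.8 and 24.4 CPM in WT MPP+ and 78.3, 92.9 and 83.5 CPM in WT PBS samples. KO lay below WT in PBS and, apart from one pair of nearly equal samples, above it in MPP+, and the interaction was 1.12 ± 0.156 (adjusted p = 0.0121 in edgeR's quasi-likelihood test). Ttc8, a subunit of the BBSome, had 0.79 ± 0.118, and Ccdc39, a protein of motile axonemes, 0.83 ± 0.136. The summed level of 14 ependymal and choroid plexus markers was 197 to 241 CPM in KO MPP+, 243 to 325 CPM in KO PBS, 266 to 309 CPM in WT MPP+ and 400 to 485 CPM in WT PBS samples, with a median interaction of 0.31; its part in these values was not tested. Without WT MPP+ replicate 1, 25 genes of the term were called higher and 5 lower.

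The term of paraspeckles holds 5 tested genes, of which Pspc1 was called higher, with a median interaction of 0.09. Neat1, the long noncoding RNA on which these bodies form, had 169, 127 and 180 CPM in KO MPP+ and 284, 311 and 291 CPM in KO PBS samples, against 70.9, 43.6 and 37 CPM in WT MPP+ and 271, 328 and 324 CPM in WT PBS samples. The PBS groups overlapped and the MPP+ groups did not, with KO above WT. Its effect was -0.90 ± 0.207 in KO and -2.61 ± 0.218 in WT, an interaction of 1.71 ± 0.293 (adjusted p = 0.0225). Jag1, a ligand of Notch receptors, had 53.5, 50.1 and 53.1 CPM in KO MPP+ and 58.2, 50.9 and 54.7 CPM in KO PBS samples, against 44.3, 60.2 and 57.7 CPM in WT MPP+ and 30.3, 24.3 and 27.3 CPM in WT PBS samples. The KO groups overlapped and the WT groups did not, an interaction of -1.05 ± 0.163 (adjusted p = 0.0163). Odc1, the enzyme that starts polyamine synthesis, had an interaction of -0.87 ± 0.106 (adjusted p = 0.00807).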
